A study of Homo sapiens with 8 samples.

Results

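The transcript response of Kasumi-1 cells to NR4A1 CEAA, a DNA binding mutant of the nuclear receptor NR4A1, was examined against a GFP control. Kasumi-1 is an acute myeloid leukemia line that carries the AML-ETO fusion. Cells were electroporated with in vitro transcribed mRNA that encoded GFP, wild type NR4A1 (NR4A1 WT) or NR4A1 CEAA, and total RNA was taken 6 h later for Affymetrix human U133 Plus arrays. The comparison used the 2 NR4A1 CEAA arrays and the 3 GFP arrays, 5 of the 8 arrays in the series, and the 3 NR4A1 WT arrays entered the same fit. All groups share the cell line, the electroporation and the time, so the controls also received a foreign mRNA. The transfected RNA is transient, and Kasumi-1 is 1 leukemia line. Every value below is a log2 intensity of a probe set (a group of probes against 1 transcript), the brightest probe set stood for each of 19775 genes, and a log2 fold change is the difference of 2 group means. The labels do not say whether replicates were independent cultures. The p-values here can therefore reflect technical spread between the arrays alone.

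NR4A1, NR4A2 and NR4A3 are orphan nuclear receptors encoded by immediate early genes. Their DNA binding domain holds zinc fingers that contact an octamer called the NBRE, AAAGGTCA, as a monomer. In NR4A1 CEAA a cysteine and a glutamate of a zinc finger are replaced by alanines, which removes DNA binding. The receptors also act without binding DNA themselves, through contacts with other transcription factors and with BCL2 family proteins. In myeloid cells they restrain proliferation, and their expression is low in acute myeloid leukemia. The comparison therefore asks which transcripts differ when the receptor is supplied but its classical DNA contact is lost.

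The transfected NR4A1 could not be followed on the arrays, whereas a pair of probe sets separated the GFP arrays from all others. The brightest NR4A1 probe set read 6.58, 6.50 and 6.28 with GFP and 6.56 and 6.52 with NR4A1 CEAA (log2 fold change 0.09, adjusted p = 0.575), and where it lies relative to the coding sequence of the mRNA is not known here. RAP1A, a small GTPase gene, has 4 probe sets. One of them read 14.43, 14.34 and 14.37 with GFP and 4.21 and 4.14 with NR4A1 CEAA, and its NR4A1 WT values were 5.42, 4.54 and 4.55. A second read 13.39, 13.49 and 13.44 with GFP, 4.41 and 4.37 with NR4A1 CEAA, and 4.97, 4.68 and 4.68 with NR4A1 WT. These log2 fold changes of -10.21 and -9.06 were the largest of any probe set after NR4A1 CEAA. The brightest RAP1A probe set stood at 11.49, 11.47 and 11.45 with GFP and at 11.66 and 11.56 with NR4A1 CEAA (adjusted p = 0.227), and the remaining one differed by 0.08 (adjusted p = 0.585 over all probe sets). The signal of the pair thus followed the arrays that received GFP mRNA, and what it hybridized to was not tested. RAP1A was singled out after its values were seen.

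Kasumi-1 identity was checked on markers. Of 24 markers of Kasumi-1 and myeloid progenitors, 21 lay above the median of all probe sets on all 8 arrays, with MPO, the myeloperoxidase gene, at 14.41 or more in the 5 arrays compared. Of 29 markers of other cell types, 16 lay above that median and 10 lay below it on every array. T cell receptor gene CD3G, endothelial CDH5 and stromal LUM were among the latter. CD3D, VWF and COL1A1, markers of the same T cell, endothelial and stromal types, were among the former. The mean level of those 29 markers was 5.28 to 5.32 in the GFP arrays and 5.31 and 5.21 in the NR4A1 CEAA arrays. EPCAM, an epithelial adhesion gene, was the brightest of them with 11.63 to 11.86 in these 5 arrays.

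NR4A1 CEAA moved many transcripts by small amounts. At a Benjamini-Hochberg adjusted p under 0.05 in limma, 3796 of 19775 genes (19.2%) passed the test, 1411 upward (7.14%) and 2385 downward (12.1%). Among them 37.2% were higher, and the median fold change of the called genes was 1.28. Past 1.5-fold these counts were 121 (0.612%) and 301 (1.52%), and past 2-fold 10 and 30. For each of the 3796 genes the 2 NR4A1 CEAA arrays lay entirely on one side of the 3 GFP arrays. Passing the test favors such a separation, so it adds no support to the calls. The share of all 19775 genes with separate arrays was not counted. Array-to-array differences over all genes had an SD of 0.158 to 0.164 within GFP (3 pairs), 0.147 within NR4A1 CEAA (1 pair) and 0.248 to 0.275 between these groups (6 pairs). Without NR4A1 CEAA replicate 1 the counts were 335 higher and 973 lower, and without replicate 2 they were 424 and 1268. Leaving out GFP replicate 1, 2 or 3 gave 876, 882 and 764 higher genes, while the lower genes changed past 1.5-fold of the count only without GFP replicate 3 (1580).

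**Figure D1:**
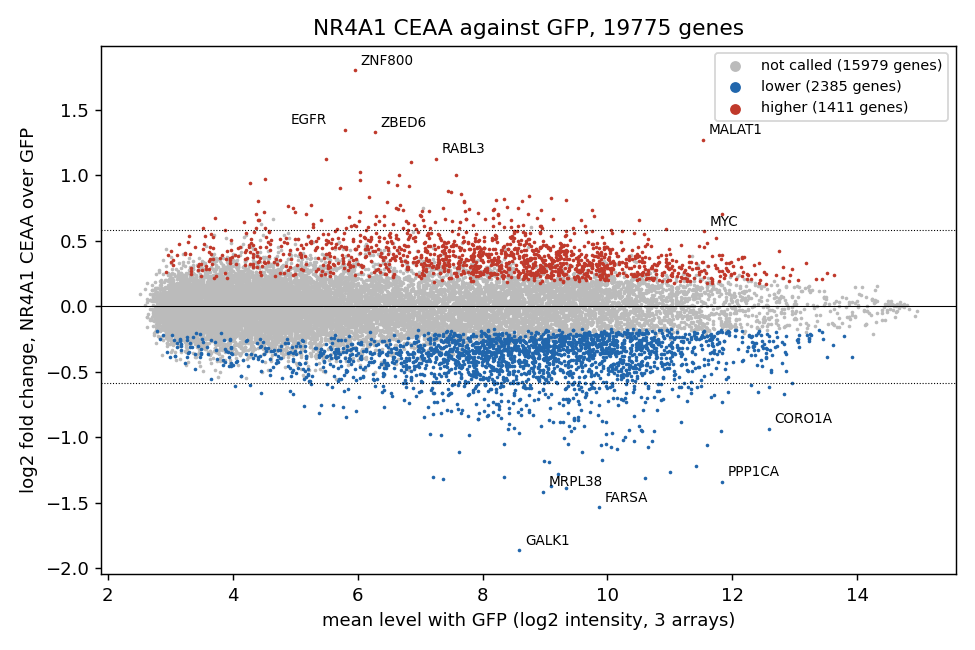
Log2 fold change of NR4A1 CEAA over GFP for each of 19775 genes against its mean level in the 3 GFP arrays, with genes past the test in red (1411 higher) and blue (2385 lower) and dotted lines at 1.5-fold. Falls reach -1.86 at GALK1 and are more numerous than rises at high levels, while the largest rise, 1.80 at ZNF800, starts from a low level.

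The NR4A1 WT comparison shares the GFP arrays, so its values are set beside those of NR4A1 CEAA without an overlap test. NR4A1 WT called 20.3% of the genes against GFP. Of the 3796 genes called after NR4A1 CEAA, 698 were called in the same direction after NR4A1 WT, 581 in the opposite direction and 2517 in neither. The direct contrast of NR4A1 WT with NR4A1 CEAA called 31.5% of all genes. By that test, 980 of the 1411 higher genes stood above their NR4A1 WT level and 1765 of the 2385 lower genes stood below it.

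The 12 largest rises ran from 0.96 to 1.80. ZNF800, a zinc finger gene, read 5.87, 6.17 and 5.84 with GFP and 7.72 and 7.81 with NR4A1 CEAA. ZBED6, which encodes a transposon-derived transcriptional repressor, read 6.42, 6.48 and 5.94 with GFP and 7.51 and 7.71 with NR4A1 CEAA (log2 fold change 1.33, SE 0.17, adjusted p = 0.00209). RABL3, a small GTPase-like gene, went from 7.32, 7.25 and 7.18 to 8.42 and 8.33 (log2 fold change 1.13, SE 0.09, adjusted p = 0.000482). In ZNF800, ZBED6 and RABL3 the 2 NR4A1 CEAA arrays lay closer to each other than the outer GFP arrays did, which was not so for EGFR and DUXAP10. The antisense RNA GAS6-AS1 rose by 1.12, the pseudogene transcript DUXAP10 by 1.10 and TUBE1, the epsilon tubulin gene, by 1.00. ZNF566 read 6.58, 6.83 and 6.56 with GFP and 7.69 and 7.64 with NR4A1 CEAA, while NR4A1 WT lowered it by 0.85 (adjusted p = 0.000942). ZNF850 had the same pair of directions, 0.96 after NR4A1 CEAA and -0.74 after NR4A1 WT, and the direct contrast between the receptors gave -1.85 for ZNF566 and -1.71 for ZNF850 (adjusted p = 2.98e-05 and 0.000109). No strand information separates GAS6-AS1 from its overlapping partner here.

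Few of these rises were shared by the other probe sets of the gene. The further probe sets of ZNF800 (3), ZBED6 (1), RABL3 (2), GAS6-AS1 (1), DUXAP10 (1), TUBE1 (1) and NAIP (2) were not called. EGFR, the epidermal growth factor receptor, had 1 of its 8 others called higher, and INHBA, an activin subunit, had both others higher. MALAT1, a nuclear long noncoding RNA, had 9 of 11 others higher, and its 12 probe sets had a median log2 fold change of 1.04. Its brightest set spread widely within GFP (11.76, 11.76 and 11.08, against 12.87 and 12.74 with NR4A1 CEAA), and its call was lost without any 1 of the 5 arrays (adjusted p up to 0.174).

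The 12 largest falls ran from -1.27 to -1.86. MRPL38, a protein of the mitochondrial ribosome, read 8.96, 8.92 and 9.03 with GFP and 7.57 and 7.55 with NR4A1 CEAA (log2 fold change -1.42, SE 0.08, adjusted p = 0.000176). MPDU1, which acts in the use of dolichol-linked mannose for glycosylation, went from 9.32, 9.26 and 9.45 to 7.95 and 7.95. SLC25A11, the mitochondrial carrier of oxoglutarate and malate, went from 8.28, 8.30 and 8.45 to 7.04 and 7.03 (log2 fold change -1.31, SE 0.08, adjusted p = 0.000191). The NR4A1 CEAA arrays lay more than 1 log2 unit below every GFP array in each of them. PPP5C, a serine/threonine phosphatase, fell by 1.32, and SPATC1L by 1.37. M1AP, a meiosis gene, fell by 1.30 after NR4A1 CEAA and rose by 0.56 after NR4A1 WT (contrast between the receptors 1.87, adjusted p = 3.25e-06). MDFI, an inhibitor of myogenic transcription factors, fell after both, by 1.28 and by 0.99. Among the 12 largest falls the other probe set was called lower in GALK1, the galactokinase gene, in FARSA, a subunit of phenylalanyl-tRNA synthetase, and in SLC25A11. No other probe set was called for MRPL38, MPDU1, PPP5C, CD37 or M1AP, and SPATC1L, PPP1CA, MDFI and PSMC3 have 1 probe set.

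**Figure D2:**
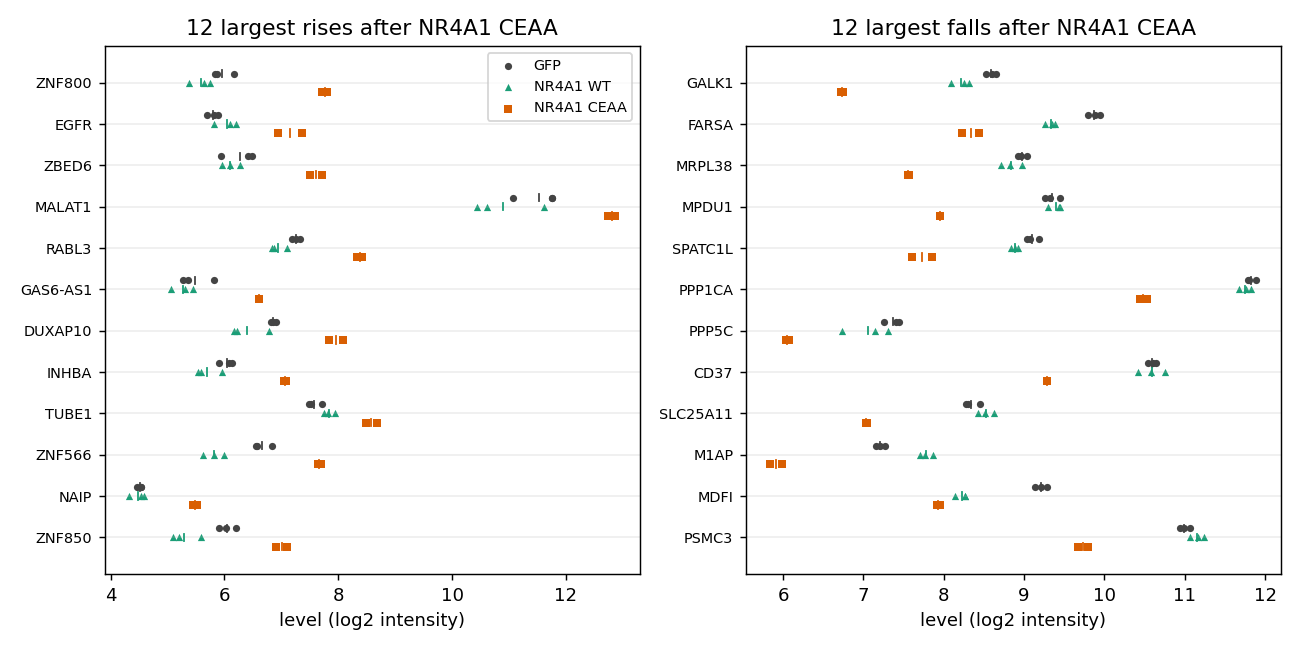
Level (log2 intensity) on each array of the 12 genes with the largest rises and the 12 with the largest falls after NR4A1 CEAA, with circles for the 3 GFP arrays, triangles for the 3 NR4A1 WT arrays, squares for the 2 NR4A1 CEAA arrays and ticks at group means. The squares lie apart from the circles in every row by the choice of the genes. The triangles lie on the GFP side of the squares in each of the 24 rows, which that choice also favors.

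A stricter view used genes with all their probe sets called in one direction. Of 10523 genes with 2 or more probe sets, 88 had every probe set higher and 185 every probe set lower, at 15.8% called over all 41091 probe sets with 1 gene symbol. SLC16A7, a transporter of pyruvate and other monocarboxylates, rose in 5 of 5 probe sets, with a median of 0.80. It read 7.87, 7.60 and 7.64 with GFP and 8.59 and 8.42 with NR4A1 CEAA, and NR4A1 WT lowered it by 0.81. KCTD12, an auxiliary subunit of GABA-B receptors, rose by 0.75 in both of its probe sets and fell by 1.48 after NR4A1 WT (contrast between the receptors -2.22, adjusted p = 3.43e-05). ESF1, a nucleolar factor, rose by 0.66 and 0.79. LARP4, a poly(A) binding factor, rose in 5 of 5 probe sets with a median of 0.74, and the transcriptional regulators RFX7, RBL2, NR1D2 and NRIP1 rose in both of theirs with medians of 0.78 to 0.84. Leaving out NR4A1 CEAA replicate 1 removed the call of the brightest probe set of SLC16A7 (adjusted p = 0.0635), and leaving out either NR4A1 CEAA array removed those of KCTD12, LARP4, RBL2, NR1D2 and NRIP1 (adjusted p up to 0.123), NRIP1 also without GFP replicate 2 or 3.

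Falls shared by every probe set were larger. STIP1, the cochaperone that links HSP70 and HSP90, read 10.26, 10.21 and 10.27 with GFP and 9.22 and 9.24 with NR4A1 CEAA (log2 fold change -1.02, SE 0.06, adjusted p = 0.000176), with -1.13 in its other probe set. AGPAT2, an enzyme of phosphatidic acid synthesis, went from 9.91, 9.88 and 9.95 to 8.77 and 8.71. CLN3, a lysosomal membrane protein gene, fell by 0.84 and 1.18, and RANGAP1, the activator of the Ran GTPase, fell in 3 of 3 probe sets with a median of -1.37. RAC2, a small GTPase gene of blood cells, fell by 0.43 and 1.80, and DEDD, a death effector domain gene, in 3 of 3, by 0.42, 1.01 and 1.00. HLA-B, a class I histocompatibility gene, fell in 3 of 3 with a median of -0.98, but its probes may share sequence with other HLA genes. None of these 7 falls lost its call when 1 array was left out.

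Mitochondrial and energy genes had many falls and few rises. Mitochondrial ribosomal proteins, which translate the proteins encoded in the organelle, had 49 of 75 measured genes lower and 0 higher (65.3% lower, against 12.1% over all genes). Their median change was -0.29 on the log2 scale, against -0.03 over all genes. On the single arrays that median stood at -0.30 and -0.26, and it lay between -0.03 and 0.03 in the GFP arrays. MRPL37 fell by 0.63 and MRPS34 by 0.59. The respiratory chain and ATP synthase had 35 of 79 genes lower and 2 higher, NDUFA5 and the pseudogene COX6A1P1 (both named after their values were seen), with a median of -0.16. UQCRC1, a core protein of complex III, read 11.26, 11.27 and 11.31 with GFP and 10.58 and 10.53 with NR4A1 CEAA, and after NR4A1 WT it was higher by 0.22 (contrast between the receptors 0.94, adjusted p = 5.23e-05). NDUFV1 of complex I fell by 0.62, but its other probe set was not called. ATP5F1D of the ATP synthase fell by 0.55 with its other probe set lower too. After NR4A1 WT the mitochondrial ribosomal list had 2 higher and 20 lower, and the respiratory list 6 higher and 1 lower. Without NR4A1 CEAA replicate 1 the lower counts were 19 and 14, without replicate 2 they were 32 and 18, and the respiratory count without GFP replicate 3 was 22.

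Glycolysis and galactose conversion had 12 of 28 genes lower (42.9%, against 12.1% over all genes) and 1 higher (3.57%, against 7.14%), with a median of -0.21. PGD, an enzyme of the pentose phosphate pathway kept in this list, read 11.59, 11.59 and 11.61 with GFP and 10.50 and 10.57 with NR4A1 CEAA (log2 fold change -1.06, SE 0.05, adjusted p = 0.000176), although neither of its other probe sets was called. PKM, pyruvate kinase, fell by 0.67, but its other probe set was not called. TPI1, triosephosphate isomerase, fell by 0.60 in its brightest set and had 1 of its 2 others lower. Leaving out NR4A1 CEAA replicate 2 left 8 genes lower. Cytosolic ribosomal protein genes had 1 of 56 lower (1.79%), RPS9 at -0.29, and a median of 0.00. That call was lost without NR4A1 CEAA replicate 1 (adjusted p = 0.0519), whereas 9 genes were lower with an intensity trend in the variance prior and 6 with the filter on dim probe sets. RPL37A of this list, named after its values were seen, read 14.73 to 14.75 on the 8 arrays, near the highest value of any probe set (14.97), and whether such signals could still register a change was not tested.

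Lists of protein turnover and membrane traffic also had more genes lower than higher, as had all genes (12.1% lower and 7.14% higher). Proteasome subunits had 18 of 34 genes lower (52.9%) and 0 higher, with a median of -0.20. PSMC3, an ATPase of the regulatory particle, read 10.99, 10.94 and 11.06 with GFP and 9.67 and 9.79 with NR4A1 CEAA, and PSMD3 fell by 0.70. PSMB10, a subunit of the immunoproteasome named here after its values were seen, fell from 10.48, 10.45 and 10.54 to 10.01 and 10.08 and rose by 0.38 after NR4A1 WT. Lysosomal enzymes and the proton pump had 14 of 40 genes lower (35.0%) and 1 higher (2.5%). ATP6V0D1 of the pump fell by 0.94, NEU1, the lysosomal sialidase, by 0.83 and CTSA, its protective protein, by 0.58. Endomembrane transport had 34 of 84 genes lower (40.5%) and 11 higher (13.1%), above the share over all genes in both directions, with a median of -0.14. COPE of the COPI coat fell by 1.00, ERGIC3 by 0.95, the SNARE gene YKT6 by 0.74 and NAPA, which recycles SNAREs, by 0.86. The other probe set of NAPA was lower too, while no other set of COPE, ERGIC3 or YKT6 was called. After NR4A1 WT these lists held 5 higher and 0 lower, 12 higher and 1 lower, and 17 higher and 6 lower. The lower counts were 6, 8 and 23 without NR4A1 CEAA replicate 1, and 10, 11 and 23 without replicate 2. The proteasome count was 12 without GFP replicate 3. The 11 higher endomembrane genes became 0 and 2 without NR4A1 CEAA replicate 1 or 2, and 5, 5 and 2 without GFP replicate 1, 2 or 3.

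Small GTPases and their regulators had 23 of 76 genes lower (30.3%, against 12.1% over all genes) and 4 higher (5.26%, against 7.14%). The study reported small GTPase signalling, actin organization and endomembrane genes as enriched among those lowered by NR4A1 CEAA on these same arrays. The lower counts of the GTPase, actin and endomembrane lists are therefore not independent evidence. RHOC read 9.61, 9.57 and 9.63 with GFP and 8.50 and 8.47 with NR4A1 CEAA (log2 fold change -1.12, SE 0.06, adjusted p = 0.000176), while its other probe set was called higher with 0.57. RAB5C, of early endosomes, fell by 1.01 with its other probe set lower as well, and RRAS fell by 0.81. Actin genes had 19 of 70 lower (27.1%) and 6 higher (8.57%). CORO1A, a coronin of leukocytes, went from 12.54, 12.57 and 12.63 to 11.64 and 11.65, PFN1, profilin, fell by 0.62, and ARPC4 of the ARP2/3 complex by 0.75 with its other probe set lower. CORO1A and PFN1 have 1 probe set each. Serine/threonine phosphatase subunits had 8 of 33 genes lower (24.2%) and 5 higher (15.2%), above the share over all genes in both directions. Of protein-coding genes cut into 5 groups by GFP level, group 4 had 23.9% lower and 14.1% higher. Group 5, the brightest, had 27.8% lower and 12.1% higher. No list was compared with genes of like level. AKT1, a kinase among the proto-oncogenes, fell by 0.78. The lower counts of the GTPase and actin lists fell to 15 and 6 when NR4A1 CEAA replicate 1 was left out, and the actin count to 11 without replicate 2.

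**Figure D3:**
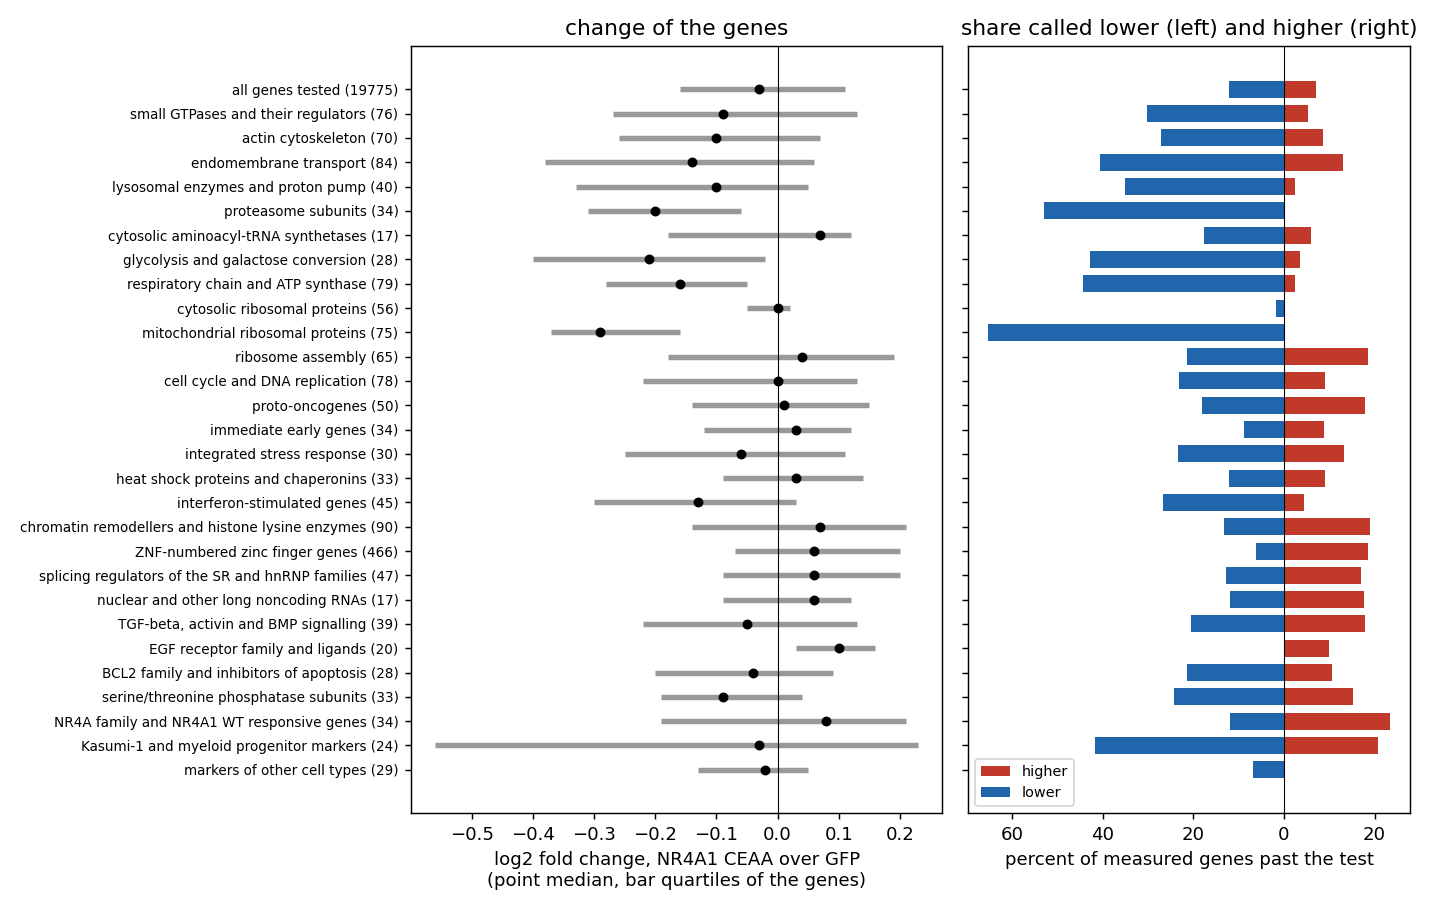
Log2 fold change of NR4A1 CEAA over GFP for 28 gene lists and for all 19775 genes (left, points at the median and bars over the quartiles, number of measured genes in parentheses) and the percent of each list past the test (right, lower to the left and higher to the right). The longest leftward bars belong to mitochondrial ribosomal proteins (65.3%) and proteasome subunits (52.9%), and ZNF-numbered genes reach 18.5% higher against 6.22% lower.

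Of the lists of nuclear regulators, the ZNF genes had more calls upward than downward in each alternative, while the chromatin and splicing lists did not. Among 466 genes with a ZNF number, most of which encode zinc finger transcription factors, 86 were higher (18.5%, against 7.14% over all genes) and 29 lower (6.22%), with a median of 0.06. At 1.5-fold or more 12 were higher and 3 lower. ZNF468 rose from 6.91, 6.77 and 6.81 to 7.89 and 7.60. After NR4A1 WT the same list had 46 higher and 54 lower. Many of these genes are close paralogs, and their probes may bind related transcripts. Chromatin remodellers and histone lysine enzymes had 17 of 90 genes higher (18.9%) and 12 lower (13.3%). EHMT1, a histone H3 lysine methyltransferase, rose by 0.60, whereas EHMT2, its partner, fell by 0.59, and the other probe sets of neither were called. KAT5, an acetyltransferase, fell by 0.50 with both other probe sets lower. Splicing regulators had 8 of 47 genes higher (17.0%) and 6 lower (12.8%), and 5 and 6 with the arrays centered on their medians. The upward counts rested on all 5 arrays. Without NR4A1 CEAA replicate 1 or 2 they were 32 and 28 for ZNF genes, 2 and 3 for chromatin genes and 2 and 2 for splicing genes. Without GFP replicate 1, 2 or 3 they were 49, 54 and 52 for ZNF genes, 4, 10 and 4 for chromatin genes and 5 in each case for splicing genes. The balance of the chromatin list turned, with 4 and 6 genes lower without NR4A1 CEAA replicate 1 or 2, 12 and 6 without GFP replicate 1 or 3, and 9 higher and 15 lower with the arrays centered.

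Ribosome assembly split in direction, with 12 of 65 genes higher (18.5%) and 14 lower (21.5%), both above the shares over all genes (7.14% and 12.1%). The median was 0.04, and NR4A1 WT had 0 higher and 51 lower. WDR74 fell by 0.81 after NR4A1 CEAA and by 0.80 after NR4A1 WT, and the contrast between the receptors was 0.01 (adjusted p = 0.924). Its 2 other probe sets stood at 0.10 and 0.12 after NR4A1 CEAA and were not called. With its probe sets averaged the limma call was lost (adjusted p = 0.0598). DDX56, a nucleolar helicase, fell by 0.61, and its other probe set was not called. RRS1 and RRN3, both named after their values were seen, moved the other way. RRS1, a factor of the large subunit, read 10.49, 10.45 and 10.51 with GFP and 10.85 and 10.87 with NR4A1 CEAA, and fell by 0.67 after NR4A1 WT (contrast -1.05, adjusted p = 2.23e-05). RRN3, which recruits RNA polymerase I, rose by 0.45, a call lost without NR4A1 CEAA replicate 2 (adjusted p = 0.0524). With either NR4A1 CEAA array left out the list had 3 higher, and 7 or 8 lower. With GFP replicate 1, 2 or 3 left out it had 6, 9 and 5 higher and 9 lower in each case.

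Cell cycle and DNA replication genes had 18 of 78 lower and 7 higher with a median of 0.00, against 24 higher and 4 lower after NR4A1 WT. AURKB, a mitotic kinase, read 8.21, 8.18 and 8.35 with GFP and 7.46 and 7.53 with NR4A1 CEAA. CDK4, the cyclin D kinase, went from 11.92, 11.89 and 11.97 to 11.26 and 11.28 (log2 fold change -0.65, SE 0.05, adjusted p = 0.000508). MCM5, of the replicative helicase, fell by 0.44 with its other probe set lower, and rose by 0.26 after NR4A1 WT (contrast 0.71, adjusted p = 4.58e-05). The other probe set of AURKB was not called. Leaving out NR4A1 CEAA replicate 1 left 7 genes of the list lower and 0 higher, and without any 1 of the other 4 arrays 14 or 15 were lower and 1 or 2 higher.

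Interferon-stimulated genes, which respond to foreign RNA through interferon signalling, had 12 of 45 lower (26.7%) and 2 higher (4.44%), with a median of -0.13. The shares over all genes were 12.1% lower and 7.14% higher. IRF9, a subunit of the transcription factor that interferon activates, read 8.16, 7.91 and 8.01 with GFP and 7.19 and 7.26 with NR4A1 CEAA. It rose by 0.38 after NR4A1 WT, and the contrast between the receptors was 1.18 (adjusted p = 3.65e-05). IFI35 fell by 0.62 after NR4A1 CEAA and rose by 0.38 after NR4A1 WT (contrast 1.00, adjusted p = 1.47e-05). IFI6 fell by 0.51 and BST2, a membrane protein that tethers virions, by 0.49. ISG15, a ubiquitin-like modifier named after its values were seen, went from 8.35, 8.37 and 8.45 to 7.87 and 7.94. After NR4A1 WT the list had 14 higher and 0 lower. The lower count was 8 without either NR4A1 CEAA array.

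Apart from the EGF receptor family, the further lists given here were called in both directions. Several of them were called more often than the 7.14% higher and 12.1% lower over all genes. Integrated stress response genes had 4 of 30 higher (13.3%) and 7 lower (23.3%), among them ATF4, the central transcription factor of that pathway, which went from 12.94, 12.79 and 12.87 to 12.40 and 12.34. Heat shock proteins and chaperonins had 3 of 33 higher (9.09%) and 4 lower (12.1%), near the shares over all genes, with HSPB1 at -0.73. TGF-beta, activin and BMP signalling had 7 of 39 higher (17.9%) and 8 lower (20.5%). ID1, an inhibitor of helix-loop-helix factors, fell by 0.86 and the ligand gene BMP4 by 0.80, and BMP4 rose by 0.33 after NR4A1 WT. BCL2 family members and inhibitors of apoptosis had 3 of 28 higher (10.7%) and 6 lower (21.4%). BAX and BAD, which promote apoptosis, had log2 fold changes of -0.37 and -0.40, and the call of BAX was lost without NR4A1 CEAA replicate 1 (adjusted p = 0.0846) and that of BAD without replicate 2 (adjusted p = 0.0668). Proto-oncogenes had 9 of 50 genes (18%) in each direction, immediate early genes 3 of 34 in each, long noncoding RNAs 3 of 17 higher and 2 lower, cytosolic aminoacyl-tRNA synthetases 1 of 17 higher and 3 lower, and the EGF receptor family and its ligands 2 of 20 higher and 0 lower. Leaving out NR4A1 CEAA replicate 1 lowered the upward and downward counts to 1 and 3 for the stress response, 0 and 2 for heat shock, 2 and 5 for TGF-beta, 1 and 2 for the BCL2 family and 3 and 5 for proto-oncogenes. Counts this small also moved with single GFP arrays, the downward ones of the stress response to 4 or 5 and of the BCL2 family to 3.

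Among the 24 markers of Kasumi-1 and myeloid progenitors 10 were lower (41.7%) and 5 higher (20.8%), against 12.1% and 7.14% over all genes. PRTN3 and AZU1, granule proteins of neutrophil precursors, read 9.77, 9.95 and 9.94 and 8.87, 8.95 and 9.01 with GFP. With NR4A1 CEAA PRTN3 stood at 8.85 and 8.81, and AZU1 at 8.04 and 8.01. Their log2 fold changes were -1.06 and -0.92 (adjusted p = 0.000311 and 0.000413), and NR4A1 WT lowered them less, by 0.38 and 0.28 (contrasts 0.68 and 0.63, adjusted p = 0.000306 and 0.00031). CSF3R, the receptor of granulocyte colony-stimulating factor, fell by 0.71 with its other probe set lower too. ELANE, the elastase gene, fell by 0.61 and CEBPA, a granulocytic transcription factor, by 0.40, and both were named after their values were seen. KIT, the stem cell factor receptor, read 13.49, 13.55 and 13.51 with GFP and 13.78 and 13.75 with NR4A1 CEAA. MPO did not pass the test. The call of CEBPA was lost without NR4A1 CEAA replicate 1 (adjusted p = 0.0521), that of KIT without GFP replicate 1 or 3 or either NR4A1 CEAA array (adjusted p up to 0.11), and without either NR4A1 CEAA array no marker was higher. Fewer cells of a type and less RNA per cell cannot be told apart in these samples.

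The NR4A family and the genes named by the study as responsive to NR4A1 WT form a list that was picked on these same arrays, so its directions are not independent evidence. Of the 34 genes 8 were higher (23.5%) and 4 lower (11.8%) after NR4A1 CEAA, against 7.14% and 12.1% over all genes. After NR4A1 WT 12 were higher and 17 lower. MYC, a master regulator of growth, read 11.52, 11.59 and 11.55 with GFP, 12.11 and 12.14 with NR4A1 CEAA and 10.22 on average with NR4A1 WT. The interleukin receptor IL7R, at 3.86, 3.98 and 3.90 with GFP and 3.96 and 4.05 with NR4A1 CEAA, was not called, against a rise of 7.30 with NR4A1 WT. For CD83, a surface marker of mature dendritic cells, the difference was 0.08 (adjusted p = 0.332), and for STAT5A it was 0.09 (adjusted p = 0.456). HDAC9, a histone deacetylase, read 6.31, 6.30 and 6.46 with GFP and 7.11 and 6.90 with NR4A1 CEAA (log2 fold change 0.65), below its rise of 1.01 after NR4A1 WT (contrast 0.36, adjusted p = 0.0152), but none of its 4 other probe sets was called. SPI1, the myeloid transcription factor PU.1, fell by 0.55 and by 0.97 after NR4A1 WT (contrast -0.43, adjusted p = 0.00569). MATK, a tyrosine kinase, fell by 0.55 and IGFBP4, a binding protein of insulin-like growth factors, by 0.67, against 0.64 and 0.98 after NR4A1 WT, and the contrasts were not called (adjusted p = 0.372 and 0.0594). The calls of FLT3, BCL6, HMOX1, PTPRC, GNG2, PTCH1 and NR4A2 were lost without either NR4A1 CEAA array (adjusted p up to 0.228), those of PTCH1 and GNG2 also without any GFP array and that of NR4A2 without GFP replicate 2 or 3. PTCH1 and GNG2 changed sign when the probe sets of a gene were averaged (-0.004 and -0.05).

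The NBRE octamer was looked for in RefSeq promoter windows (GRCh38.p14), from 250 bases before to 50 after the start of a gene, on both strands. Of 16520 protein-coding genes 13455 had a window, and 168 of these genes (1.25%) held the octamer. It was present in 1.26% of the higher genes with a window and in 0.93% of the lower ones, and 1.22% of all 35116 windows held it. ENO3, the muscle enolase gene that responds to NR4A1 WT, is shown with a pair of higher and a pair of lower genes that hold the octamer and were picked after their values were seen. Letters run 5′ to 3′ on the strand of the gene, with the octamer in capitals as AAAGGTCA or as its reverse complement TGACCTTT.
ENO3, chr17:4950921-4950978, plus strand: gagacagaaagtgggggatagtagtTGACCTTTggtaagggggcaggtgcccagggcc
CD1C, chr1:158289725-158289782, plus strand: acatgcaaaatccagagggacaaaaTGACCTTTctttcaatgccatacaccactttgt
ZNF117, chr7:64991252-64991286, minus strand: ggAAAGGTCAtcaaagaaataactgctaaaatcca
VPS25, chr17:42773218-42773275, plus strand: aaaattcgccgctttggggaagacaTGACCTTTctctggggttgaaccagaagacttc
COPS6, chr7:100088732-100088789, plus strand: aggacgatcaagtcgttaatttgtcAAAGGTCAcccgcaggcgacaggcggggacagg

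All 5 stretches lie upstream of the start because only octamers there were shown, and that of ENO3 begins 173 bases before it. ENO3 read 5.95, 5.88 and 6.13 with GFP and 5.73 and 5.85 with NR4A1 CEAA (log2 fold change -0.19, adjusted p = 0.174), against 9.12 on average with NR4A1 WT (contrast 3.33, adjusted p = 8.6e-07). CD1C, a lipid-presenting molecule, went from 5.28, 5.25 and 5.32 to 5.84 and 5.93, and rose by 0.89 after NR4A1 WT. ZNF117 rose by 0.71 in 1 of its 4 probe sets. VPS25, of the ESCRT-II complex, fell from 10.25, 10.32 and 10.38 to 9.77 and 9.73, and COPS6, of the COP9 signalosome, fell by 0.51 while its other probe set was not called. VPS25 and COPS6 were not called after NR4A1 WT (adjusted p = 0.224 and 0.959). The call of CD1C was lost without either NR4A1 CEAA array (adjusted p up to 0.0973) and that of ZNF117 without replicate 2 (adjusted p = 0.0525). A match of letters is a description and not a bound site.

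The lower genes were short and the higher genes long. Over protein-coding genes the median span from start to end in RefSeq was 14.5 kb for the 2281 lower genes, 51.8 kb for the 1319 higher genes and 30.0 kb for those not called. At 1.5-fold or more the medians were 10.5 kb and 55.3 kb. With the 16520 genes cut into 5 groups of equal size by span, 2.75% of the shortest genes (0.339 to 8.51 kb) were higher and 21.8% lower. Their median change was -0.09 on the log2 scale. In the longest group (92.5 to 2470 kb) 12% were higher and 4.57% lower, with a median of 0.03. The medians after NR4A1 WT over the same groups ran from -0.01 to 0.02. Among genes whose mean over the 8 arrays lay at or above the median gene, a split made after the values were seen and cut anew into 5 groups by span, the shortest group had 3.91% higher and 40.8% lower, and the longest 20.5% higher and 7.82% lower. Among the dimmer genes, cut likewise, the shares were 1.91% and 3.54% at the short end and 2.90% and 1.70% at the long end. Under each alternative tried, the shortest group had more genes lower than higher, and the longest group more genes higher than lower. The shortest group had 11.4% lower and 0.363% higher without NR4A1 CEAA replicate 1, and the longest 3.30% higher and 1.12% lower.

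**Figure D4:**
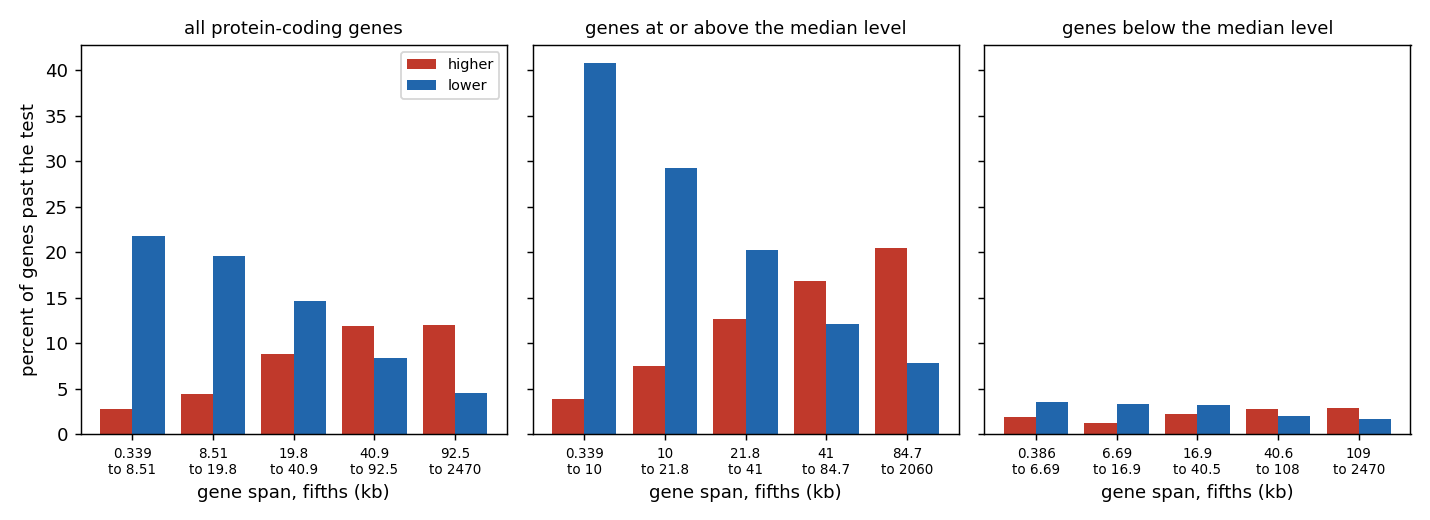
Percent of protein-coding genes higher (red) and lower (blue) after NR4A1 CEAA in 5 groups of equal size by gene span (kb), for all 16520 genes and, with the groups cut anew, for genes at or above and below the median level. The lower share falls from 40.8% to 7.82% and the higher share grows from 3.91% to 20.5% among the brighter genes, with both under 4% among the dimmer ones.

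Span moved with the gene lists in part. Mitochondrial ribosomal proteins and the respiratory chain, with 49 of 75 and 35 of 79 genes lower, had median spans of 8.67 and 8.92 kb, and chromatin genes, whose balance of higher and lower genes changed with the arrays used, 86.8 kb. Cytosolic ribosomal proteins had 5.05 kb and 1 call, and ZNF genes 23.5 kb, below the 28.4 kb of all protein-coding genes, with more higher than lower. Promoter GC content differed little, with medians of 65.3% in the higher, 64.7% in the lower and 63.3% in the genes not called. Called genes were brighter than the rest, with a median GFP level of 8.46 for higher and 8.90 for lower genes against 5.71 for those not called. Whether span, level or another property accounts for the calls was not tested.

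Probe sets of 1 gene often differed. Over all 41091 probe sets with 1 gene symbol, 736 were higher and 696 lower at 1.5-fold or more, where the brightest sets gave 121 and 301 genes. Of the 50 probe sets with the largest rises 1 was the brightest of its gene, and for 33 of the other 49 the brightest was not called. Of the 50 with the largest falls 16 were the brightest. TMEM33, an endoplasmic reticulum membrane protein gene, had a probe set at 4.01, 4.04 and 3.95 with GFP and at 6.68 and 6.90 with NR4A1 CEAA, while its brightest set differed by 0.15 (adjusted p = 0.205 over all probe sets). In G3BP1, a stress granule gene, 1 set went from 4.66, 4.87 and 4.86 to 7.67 and 7.22, against 0.13 in the brightest. TPR, of the nuclear pore, had sets at 2.25 and 1.58 and a brightest at 0.04, LARS1, leucyl-tRNA synthetase, 2.09 against 0.12, and SUPT16H, of the histone chaperone FACT, 2.05 against -0.04. EEA1, of early endosomes, rose in 3 of 3 sets, by 2.12, 0.51 and 0.46. None of these 6 genes had a probe set called lower.

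Falls had the same kind of spread. MAP2K2, a kinase of the MAPK cascade, fell by 1.96 in 1 set and by 0.73 in the brightest, while the third stood at 0.23 and was not called. ENO1, the enolase of most tissues, fell by 1.73 in 1 set, from 12.60, 12.54 and 12.65 to 10.89 and 10.84, and by 0.24 in the brightest. RPL37A, a cytosolic ribosomal protein gene, fell by 1.76 in a set at 9.40, 9.55 and 9.33 with GFP and 7.65 and 7.69 with NR4A1 CEAA, while its brightest set stayed within 14.73 to 14.74 on these 5 arrays. HOMER3 fell by 1.61 and 0.65 in 2 sets and stood at 0.02 in the brightest. Over the array, 55 of 1060 higher and 73 of 1256 lower genes with several probe sets had another one called in the opposite direction, and in 618 and 784 of them no other set was called. These genes were named after their values were seen, and the part of each transcript that a probe set reads was not used here.

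**Figure D5:**
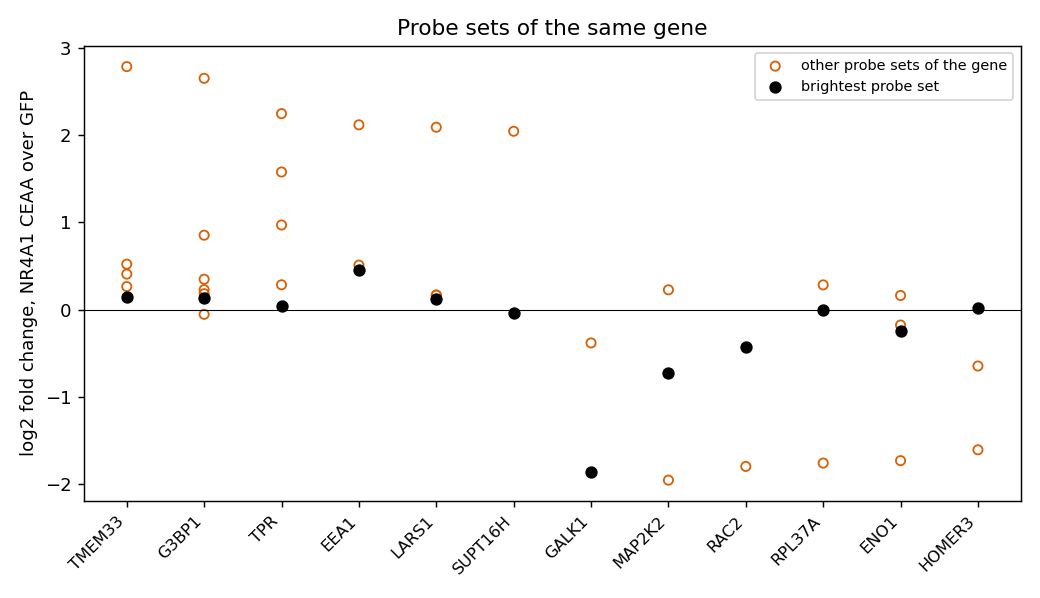
Log2 fold change of NR4A1 CEAA over GFP for every probe set of 12 genes, the 6 with the largest rises and the 6 with the largest falls of any probe set apart from RAP1A, with filled points for the brightest set and open circles for the others. The brightest set lies within 0.5 of 0 in all except GALK1 and MAP2K2, while other sets reach 2.79 and -1.96.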

How the data were processed

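Total RNA from 8 Kasumi-1 samples was hybridized to Affymetrix U133 Plus 2.0 arrays. The deposited values are log2 intensities that the authors obtained by robust multi-array averaging (RMA) in RMA Express, whose version is not given in the sources used here. RMA corrects background, forces arrays to 1 distribution and summarizes probes, which compresses large differences. The arrays' medians lay between 4.755 and 4.802, and the number of arrays limits the precision. Of 54613 probe sets, 41091 have 1 gene symbol in the platform annotation, 1801 several and 11721 none. Where a gene had several, the brightest on average over the 8 arrays was kept, which gave 19775 genes.

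Samples were grouped by the labels. limma 3.58.1 in R 4.3.3 fitted the GFP, NR4A1 WT and NR4A1 CEAA groups in 1 model (8.04 degrees of freedom, prior included), two-sided, and p-values were adjusted by Benjamini-Hochberg over all genes, or over all 41091 probe sets where other probe sets were compared. The fit was tested on simulated data. Named genes were the 12 largest rises and falls whose arrays did not overlap, the 10 largest rises and falls shared by all probe sets of a gene, up to 4 called members of each list, and the genes named by the study; further ones are marked in the text. Members and gene lists were chosen with earlier results of these data known. Gene spans and promoter windows came from RefSeq (GRCh38.p14), read with Python 3.11.15, and 16520 of the genes were protein-coding there. Alternatives covered the variance prior, array weights, the arrays fitted, a filter on dim probe sets, centering, quantile normalization, a replicate block, the choice of probe set, a stricter threshold, Rank Product (100 permutations, q up to 0.05, the test that the study names) and each array left out.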

Additional observations from a re-analysis of the deposited data

Results flagged for a closer look

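Probe sets without a gene symbol entered no comparison of genes, and they also differed between NR4A1 CEAA and GFP. Of 11721 such probe sets 501 were higher and 283 lower in the limma fit over all probe sets, 6.69% in all. Among them 63.9% of the called ones were higher, against 44.8% of those called among the 41091 probe sets with 1 symbol, and this difference in shares was not tested. The largest rise read 6.98, 7.53 and 7.03 with GFP and 8.80 and 9.05 with NR4A1 CEAA, a log2 fold change of 1.75. The largest fall went from 6.74, 6.85 and 6.95 to 5.22 and 5.72, a log2 fold change of -1.38. What these probe sets read is not named here.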

How the results depend on the processing

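More genes were lower than higher in each alternative, but past 1.5-fold this turned over all probe sets. The share of called genes that were higher ran from 25.1% without NR4A1 CEAA replicate 2 to 45.2% over all probe sets, and the scalings gave 30.9% with arrays centered and 42.2% with quantile normalization repeated. Higher genes numbered 335 to 1538 and lower genes 973 to 2512 when 1 array was left out. At an adjusted p under 0.01 there were 435 higher and 1183 lower genes. Rank Product called 92 and 268. Over all probe sets with 1 symbol 2924 were higher and 3552 lower, and past 1.5-fold 736 were higher and 696 lower. With the replicate number as a block 822 genes were higher and 1643 lower, but whether the numbers pair the samples is not known. Same-numbered GFP and NR4A1 CEAA arrays had correlations of 0.043 and -0.016 in their deviations from the group means. With 2 NR4A1 CEAA arrays these deviations mirror each other, so the correlations cannot decide it. Of 148 called genes chosen by the naming rule or named in addition, 138 kept their call under the block, 78 under Rank Product, 111 without NR4A1 CEAA replicate 1 and 117 without replicate 2. With probe sets of a gene averaged, 124 kept it and 4 changed sign, CD4 at 0.15, GNG2 at -0.05, PTCH1 at -0.004 and SARS1 at 0.04. The cause was not tested. The split of genes by level within span groups was chosen after seeing the data.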

Other observations

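Of 2657 lncRNA genes in RefSeq 57 were higher (2.15%) and 83 lower (3.12%) after NR4A1 CEAA, against 7.98% and 13.8% of protein-coding genes. The median log2 fold change of the lncRNA genes was -0.02. Of 423 transcribed pseudogenes 27 were higher (6.38%) and 12 lower (2.84%), with a median of -0.01. DUXAP10, at 6.85, 6.90 and 6.81 with GFP and 8.08 and 7.84 with NR4A1 CEAA, is the transcribed pseudogene with the largest rise.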
